A study of Homo sapiens with 8 samples.

Results

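Laminin subunit genes were measured on 8 arrays of the human keratinocyte line HaCaT, which was immortalized from adult skin and still forms epidermis-like layers. The set was chosen by name, with earlier results of these data known, and holds LAMA3, LAMA5, LAMB1, LAMB2, LAMB3 and LAMC1. Of these 6 genes, 5 had a probe set annotated to a single gene symbol, out of 19775 genes so named on the array, and LAMA3 was not analysed here. LAMB1 and LAMC1 each had 2 such probe sets and the others 1, which makes 7. A gene is represented by its brightest probe set, and the other one serves as a check.

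In 6 of the groups the cells were infected with an adenoviral vector carrying LacZ (the control), HRAS G12V (constitutively active RAS) or HRAS N116Y (dominant negative RAS), and each vector was taken without TGF-beta and with TGF-beta3 at 5 ng/ml for 24 h. A further 2 groups had neither an adenovirus nor TGF-beta and received control siRNA or p53 siRNA. All groups grew in medium with fetal bovine serum. Replication is lacking throughout: there was 1 array for each group, and no label says whether the arrays came from separate cultures. Values are scaled signals, on a linear scale on which the trimmed mean of each array is 100. Signals were compared within a gene only, because probe sets differ in brightness for reasons other than transcript level.

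Laminins are cross-shaped trimers of an alpha, a beta and a gamma chain, secreted into the basement membrane, where their short arms form a network and the end of the alpha chain binds integrins and dystroglycan on cells. Basal keratinocytes rest on a laminin whose beta chain is encoded by LAMB3 and whose alpha chain is encoded by LAMA3, and this trimer anchors hemidesmosomes through the integrin of ITGA6 and ITGB4. LAMA5 encodes the alpha chain of the other main laminins of adult epithelia, which pair it with the beta chain of LAMB1 or LAMB2 and the gamma chain of LAMC1.

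The sequences just before the transcription starts are shown for the 3 genes whose signals changed with TGF-beta3, because these are the stretches from which the transcripts set out. They are RefSeq promoter windows of build GRCh38.p14, each 250 bases that end at the base before an annotated start, and all 6 genes had at least 1 such window. LAMB3 has 3 annotated starts, of which the outermost and the innermost are given. The start that gives rise to the probe set's transcript is not known here. Capitals mark TGANTCA, the motif of AP-1 factors, or CAGAC, the short motif of SMAD proteins, on either strand.
LAMB3 start 1, chr1:209652426-209652675, minus strand: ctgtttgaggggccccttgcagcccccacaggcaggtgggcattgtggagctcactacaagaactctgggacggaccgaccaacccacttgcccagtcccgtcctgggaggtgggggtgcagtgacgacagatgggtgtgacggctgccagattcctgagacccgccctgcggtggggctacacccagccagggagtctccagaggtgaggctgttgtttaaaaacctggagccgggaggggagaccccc
LAMB3 start 3, chr1:209651375-209651624, minus strand: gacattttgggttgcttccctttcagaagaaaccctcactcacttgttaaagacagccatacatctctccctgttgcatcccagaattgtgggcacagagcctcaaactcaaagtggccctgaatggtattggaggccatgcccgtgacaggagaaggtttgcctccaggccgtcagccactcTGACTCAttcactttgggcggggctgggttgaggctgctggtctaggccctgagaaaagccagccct
LAMC1, chr1:183023170-183023419, plus strand: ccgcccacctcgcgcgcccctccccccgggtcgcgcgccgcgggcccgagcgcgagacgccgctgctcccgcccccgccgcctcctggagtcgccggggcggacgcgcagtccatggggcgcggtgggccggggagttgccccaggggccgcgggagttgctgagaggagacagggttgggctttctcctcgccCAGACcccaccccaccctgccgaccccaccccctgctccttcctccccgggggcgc
LAMA5, chr20:62367313-62367562, minus strand: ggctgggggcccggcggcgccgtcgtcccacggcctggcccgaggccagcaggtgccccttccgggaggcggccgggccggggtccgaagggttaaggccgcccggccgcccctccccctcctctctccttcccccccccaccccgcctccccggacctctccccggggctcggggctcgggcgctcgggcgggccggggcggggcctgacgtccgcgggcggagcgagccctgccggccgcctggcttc
TGANTCA was found 67 bases before the innermost start of LAMB3 and in none of the other windows printed, while 6.57% of the 35097 windows of all genes hold it. CAGAC was found 56 bases before the start of LAMC1 and in none of the other windows printed, against 37.99% of all windows. CANNTG, the E-box, was found 3 times at the outermost start of LAMB3, once at its innermost start, once at LAMA5 and 0 times at LAMC1, and 61.8% of all windows hold it. The window of LAMA5 is 82.8% G and C and that of LAMC1 79.6%, against 64% and 54% for the LAMB3 windows printed and a median of 58% over all windows. A match of letters describes the window and is not a site of binding.

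The arrays themselves were alike in their overall signal. The share of probe sets at or above a signal of 50 ran from 28.0% to 29.9% over the arrays. All 7 measured keratinocyte markers, among them KRT5 and KRT14, were above 50 on all 8 arrays. Of 8 fibroblast markers, COL1A2, DCN, LUM, PDGFRB, FAP and THY1 were below 50 on all arrays, COL1A1 and COL3A1 were not, and the 5 endothelial markers were below 50 throughout. MITF, a melanocyte factor, was the only one of 4 melanocyte markers at 50 or more, and HLA-DRA the only leukocyte marker, on the control siRNA array alone. The summed signal of the 8 fibroblast markers was 94.8 to 184 on the untreated adenovirus arrays and 250.4 to 427 on those with TGF-beta3. COL1A1 alone went from 45.0 to 164 with LacZ, 39.7 to 288 with HRAS G12V and 50.8 to 253 with HRAS N116Y. The rise in the sums thus largely follows that gene and does not show a shift shared by the markers. The sum of the 7 keratinocyte markers was 20814 to 22295 and 31353 to 32334 on the same arrays. By limma's test, described below, 6 of the 7 were called higher with TGF-beta3, against 16.3% of all genes tested. The part of these shifts in the laminin results was not tested. HRAS, the gene in the vectors, had signals of 316 and 287 on the LacZ arrays, 109 and 86.1 on the HRAS G12V arrays and 67.1 and 58.1 on the HRAS N116Y arrays, untreated first. Whether its probe set can read the inserts is not known here, so these signals check nothing about the vectors. The labels disagree on TGF-beta: the titles and the field on TGF-beta stimulation, used here, give the reverse of another field for the 6 adenovirus arrays. MMP9, a gelatinase induced by TGF-beta, had signals of 45.5, 59.8 and 23.1 on the arrays titled as untreated and of 1464, 2292 and 468 on those titled as treated.

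With TGF-beta3, LAMB3 and LAMC1 rose and LAMA5 fell, while LAMB1 did not pass the test and LAMB2 was too dim to be tested. LAMB3 rose 3.77-fold on average over the 3 vectors, LAMC1 rose 1.37-fold, and LAMA5 fell 1.66-fold. A gene was tested if its scaled signal reached 50 on at least 2 of the 6 adenovirus arrays, which 4 of the 5 laminin genes did. The test was limma's, in a model in which vector and TGF-beta add on the log2 scale, and an adjusted p under 0.05 over all 8982 genes tested was called a change. By that rule 2 of the 4 laminin genes rose, against 16.3% of all genes tested, and 1 fell, against 17.4%.

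**Figure D1:**
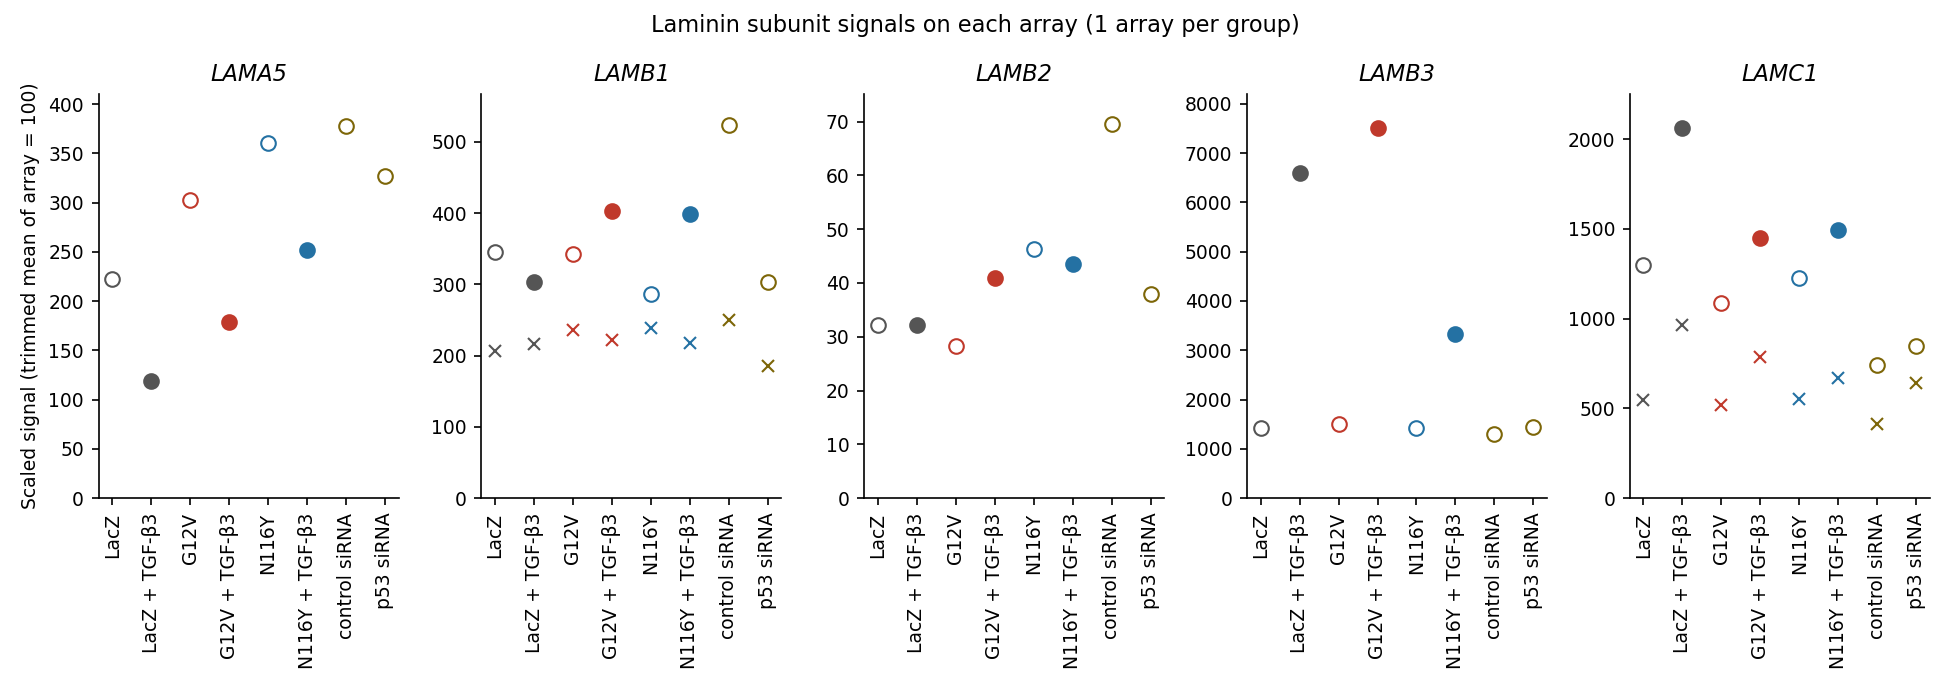
Scaled signal (trimmed mean of each array = 100, linear axis from 0) of each measured laminin gene on the 8 arrays, 1 array per point. Circles are the probe set used and crosses the other probe set; filled circles are arrays with TGF-beta3. LAMB3 lies at 1421 to 1509 on the 3 untreated adenovirus arrays and at 3326 to 7509.5 on the 3 treated ones.

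LAMB3, the beta chain of the hemidesmosomal laminin, had untreated signals of 1426 (LacZ), 1509 (HRAS G12V) and 1421 (HRAS N116Y). With TGF-beta3 its signals were 6588, 7509.5 and 3326 in the same order. The treated and untreated arrays did not overlap, and the untreated arrays lay close together. The average log2 change was 1.92 ± 0.18 (SE), with limma's adjusted p = 3.57e-05, and 0.891% of the genes tested changed by more in either direction. Within the vectors the log2 ratios were 2.21 for LacZ (4.62-fold), 2.32 for HRAS G12V (4.98-fold) and 1.23 for HRAS N116Y (2.34-fold). LAMB3 was the only laminin gene measured that was at least 2-fold higher with TGF-beta3 in any vector, and it was so in all 3. Among genes with a signal of 50 on either array of the pair, 4.22% were at least 2-fold higher in LacZ cells, 5.53% in HRAS G12V cells and 4.9% in HRAS N116Y cells. Under quantile normalization the LacZ and HRAS G12V ratios were 2.01 and 2.15.

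LAMC1, the gamma chain shared by most laminins, had signals of 1298 untreated and 2064 with TGF-beta3 in LacZ cells. HRAS G12V cells had 1088 and 1449, and HRAS N116Y cells 1228 and 1491. Each treated array was above all untreated ones. The average log2 change was 0.45 ± 0.11 (SE; limma's adjusted p = 0.0108), and 29.8% of the genes tested changed by more. The within-vector log2 ratios were 0.67, 0.41 and 0.28 in the order of the vectors above. The other probe set of LAMC1 had untreated signals of 547, 518 and 553 and treated signals of 962, 783 and 669.9, and a log2 change of 0.56 ± 0.12 (SE; limma's adjusted p = 0.00588). The call rested on the LacZ arrays: without the untreated or the treated one the log2 change was 0.35, with limma's adjusted p = 0.128 and 0.132.

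LAMA5, the broadly expressed epithelial alpha chain, moved the other way. Its signals were 222 untreated and 119 with TGF-beta3 in LacZ cells, 303 and 178 in HRAS G12V cells, and 360.1 and 252 in HRAS N116Y cells. It was lower with TGF-beta3 in 3 of 3 vectors, but the groups overlapped, because the treated HRAS N116Y array lay above the untreated LacZ array. The average log2 change was -0.73 ± 0.13 (SE; limma's adjusted p = 0.00202), and 14.4% of the genes tested changed by more. The within-vector log2 ratios were -0.90, -0.76 and -0.52, none of them 2-fold, where 4.4%, 4.54% and 4.94% of genes were at least 2-fold lower in the 3 vectors. LAMA5 has a single probe set here, so no second one checks it.

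LAMB1, a beta chain that pairs with the LAMA5 chain, had signals of 346 and 303 in LacZ cells without and with TGF-beta3. HRAS G12V cells had 343 and 403, and HRAS N116Y cells 287 and 398. The ratio was thus below 1 with LacZ and above 1 with both RAS vectors, with log2 values of -0.19, 0.24 and 0.47. The average log2 change was 0.17 ± 0.14 (SE; limma's adjusted p = 0.373). The other probe set gave log2 ratios of 0.08, -0.09 and -0.13, of the opposite sign in each vector, and a change of -0.05 ± 0.13 (SE; limma's adjusted p = 0.807). No direction is given for LAMB1.

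LAMB2, the other beta chain of such trimers, stayed dim. Its signals were 32.1 and 32.2 in LacZ cells, 28.2 and 41.0 in HRAS G12V cells, and 46.4 and 43.6 in HRAS N116Y cells, all below 50. Its log2 ratios of 0.00, 0.54 and -0.09 come from signals near the floor of 20 below which values were raised to 20, and they have no order. Of the remaining laminin chains, LAMA1, LAMA2, LAMA4, LAMB4 and LAMC3 had a named probe set and none was tested. LAMA2 reached 50.9 on the untreated LacZ array and the other 4 at most 37.6 on any array. In bulk RNA, fewer cells that make a transcript and less transcript per cell cannot be told apart.

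**Figure D2:**
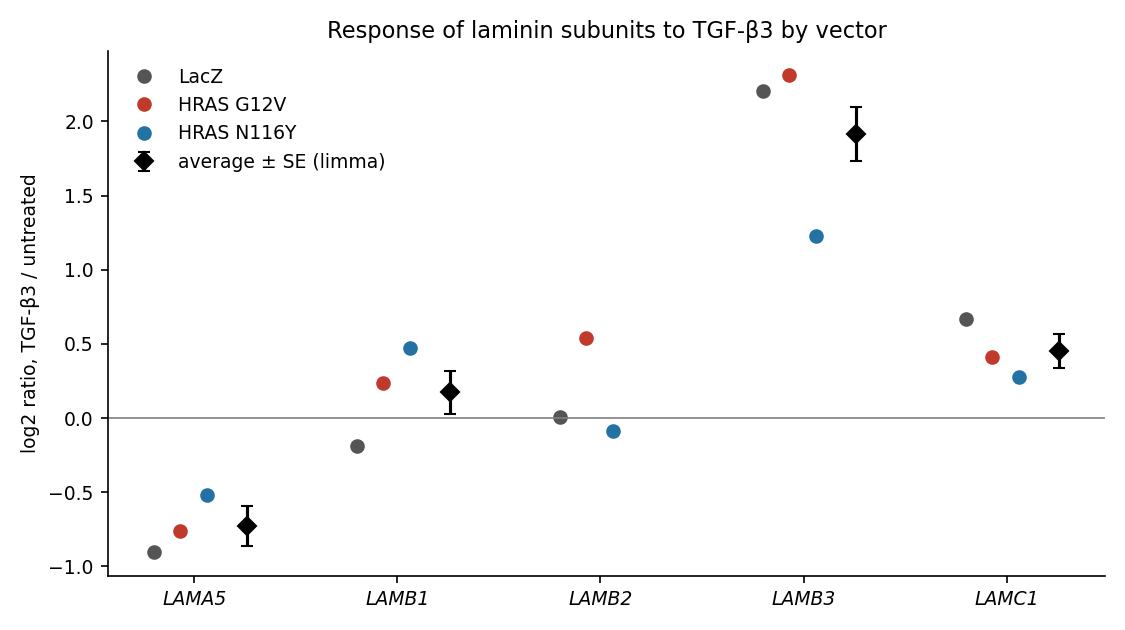
Log2 ratio of signal with TGF-beta3 over signal without, for each measured laminin gene and vector (coloured points, 1 array over 1 array). Black diamonds are the average over the vectors with its SE from limma. LAMA5 lies below 0 and LAMB3 and LAMC1 above 0 in all 3 vectors, and the LAMB3 ratio is 1.23 with HRAS N116Y against 2.21 and 2.32.

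**Figure D3:**
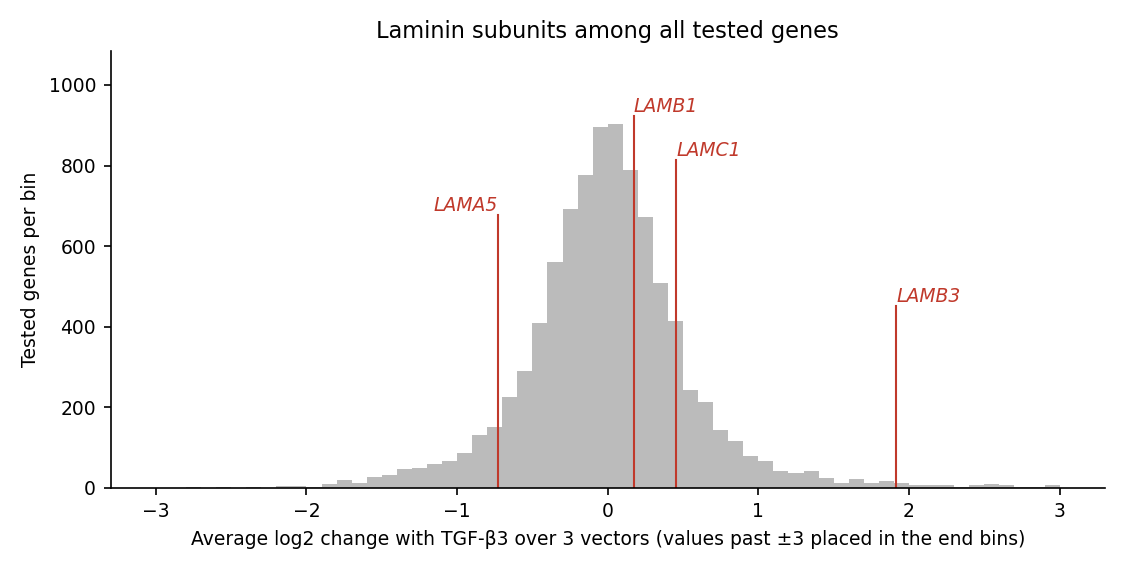
Average log2 change with TGF-beta3 (horizontal axis, bins of 0.1) of all 8982 tested genes (bars count genes per bin), with the 4 tested laminin genes as red lines whose height has no meaning. LAMB3 lies in the right tail at 1.92, and LAMC1 (0.45), LAMB1 (0.17) and LAMA5 (-0.73) lie within the bulk of genes.

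The response of LAMB3 to TGF-beta3 was smaller with dominant negative RAS, and it was nearly the same with active RAS as with LacZ. The log2 response with HRAS N116Y minus that with LacZ was -0.98, and 4.07% of the genes tested had a larger difference in either direction. The response with HRAS G12V minus that with HRAS N116Y was 1.09, a size exceeded by 3.44% of genes. Differences of at least 1 were found for 3.82% and 4.65% of genes in these comparisons. The response with HRAS G12V minus that with LacZ was 0.11, where 1.17% of genes had a difference of at least 1. These differences rest on 4 arrays each and were not tested, because the additive model holds the interaction in its residual. With HRAS N116Y minus LacZ, the response of LAMC1 differed by -0.39, that of LAMA5 by 0.38 and that of LAMB1 by 0.66, sizes that 35.7%, 36.3% and 12.8% of genes exceeded.

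Active RAS was compared with LacZ within each TGF-beta state and on average. No laminin gene passed limma's test, where 4 genes in all did, all of them lower: 0.0445% of the 8982 tested, with 0% higher. At an unadjusted p under 0.05 there were 2 of 4 laminin genes, against 6.39% of all genes. LAMA5 had a log2 change of 0.51 ± 0.16 (SE; limma's adjusted p = 0.68), with log2 ratios of 0.45 without and 0.58 with TGF-beta3. LAMC1 had one of -0.38 ± 0.14 (SE; limma's adjusted p = 0.713), with ratios of -0.25 and -0.51, and its other probe set had -0.19 ± 0.15 (SE). LAMB3 had one of 0.14 ± 0.22 (SE; limma's adjusted p = 0.951) and LAMB1 one of 0.20 ± 0.17 (SE; limma's adjusted p = 0.885). None of the 5 laminin genes was 2-fold apart in either state. Over all genes, 0.173% were 2-fold higher and 0.231% lower without TGF-beta3, and 0.25% and 0.341% with it. Without the treated HRAS N116Y array the log2 changes of LAMA5 and LAMC1 stayed at 0.51 and -0.38. Both crossed the threshold there through the error estimate or the adjustment, not through a larger change. That fit leaves 1 HRAS N116Y array, so no conclusion is drawn from it.

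Dominant negative RAS went with more LAMA5. LAMA5 rose 1.85-fold against LacZ (log2 change 0.89 ± 0.16 SE, limma's adjusted p = 0.0191), and it was the only 1 of the 4 laminin genes tested to pass, where 1.58% of all genes rose and 0.846% fell. It was higher in both TGF-beta states, by 0.70 without and 1.08 with TGF-beta3 on the log2 scale, the latter 2.11-fold. No other laminin gene was 2-fold apart from LacZ in either state, where 1.18% of genes were 2-fold higher and 0.738% lower without TGF-beta3, and 3.03% and 1.59% with it. Across the vectors its signals stood in the order LacZ, HRAS G12V, HRAS N116Y both without and with TGF-beta3. With HRAS G12V against HRAS N116Y its log2 change was -0.37 ± 0.16 (SE; limma's adjusted p = 0.218), so neighbours in that order were not separated by the test, although this change passed without the untreated HRAS N116Y array (-0.53, limma's adjusted p = 0.0415). Among the fibroblast markers, COL3A1 rose by 2.64 with HRAS N116Y against LacZ, with signals of 107 and 144 on the HRAS N116Y arrays and 17.8 and 16.1 on the LacZ arrays, and its part in the LAMA5 result was not tested. Without the treated LacZ array the LAMA5 change against LacZ was 0.76 (limma's adjusted p = 0.226), and the call was also lost with no filter on dim genes (limma's adjusted p = 0.134), with the mean of all probe sets (0.0643 likewise) and with an untrended prior (0.054).

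The LAMB3 signals of the vectors were close together without TGF-beta3: the log2 ratios to LacZ were 0.08 with HRAS G12V and -0.00 with HRAS N116Y. With TGF-beta3 they were 0.19 and -0.99, and HRAS G12V was 2.26-fold above HRAS N116Y. It was the only 1 of the 5 laminin genes that far apart between the RAS vectors, where 2.51% of genes were 2-fold higher and 3.73% lower with TGF-beta3, and 1.06% and 2.49% without it. The averaged changes mix these states. They were -0.50 ± 0.22 (SE; limma's adjusted p = 0.337) for HRAS N116Y against LacZ and 0.63 ± 0.22 (SE; limma's adjusted p = 0.13) for HRAS G12V against HRAS N116Y. The former was 0.02 without the treated HRAS N116Y array, and it passed without the untreated HRAS N116Y array (-1.01, limma's adjusted p = 0.00112) or the untreated LacZ array (-0.71, limma's adjusted p = 0.0193). The latter stayed at 0.63 without 1 or both LacZ arrays, and it passed without both. It also passed in some fits that left 1 array of a vector, whose p-values are not given for it. With any arrays left out it ran from 0.11 to 1.15. Where 1 array of a compared vector was left out, the model took the TGF-beta3 response from the other vectors. Such changes therefore also hold the untested difference in response. Under quantile normalization the treated ratio of HRAS G12V to HRAS N116Y was 0.97 on the log2 scale, just under 2-fold.

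LAMC1 had a log2 change of -0.27 ± 0.14 (SE; limma's adjusted p = 0.405) for HRAS N116Y against LacZ, with ratios of -0.08 without and -0.47 with TGF-beta3. LAMB1 had one of 0.06 ± 0.17 (SE; limma's adjusted p = 0.92). Between the RAS vectors 0 of 4 laminin genes passed limma's test and 2 had an unadjusted p under 0.05, against 21.4% of all genes, where 2.58% of all genes were called higher and 3.8% lower with HRAS G12V. The comparisons of each RAS vector with LacZ share the LacZ arrays.

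**Figure D4:**
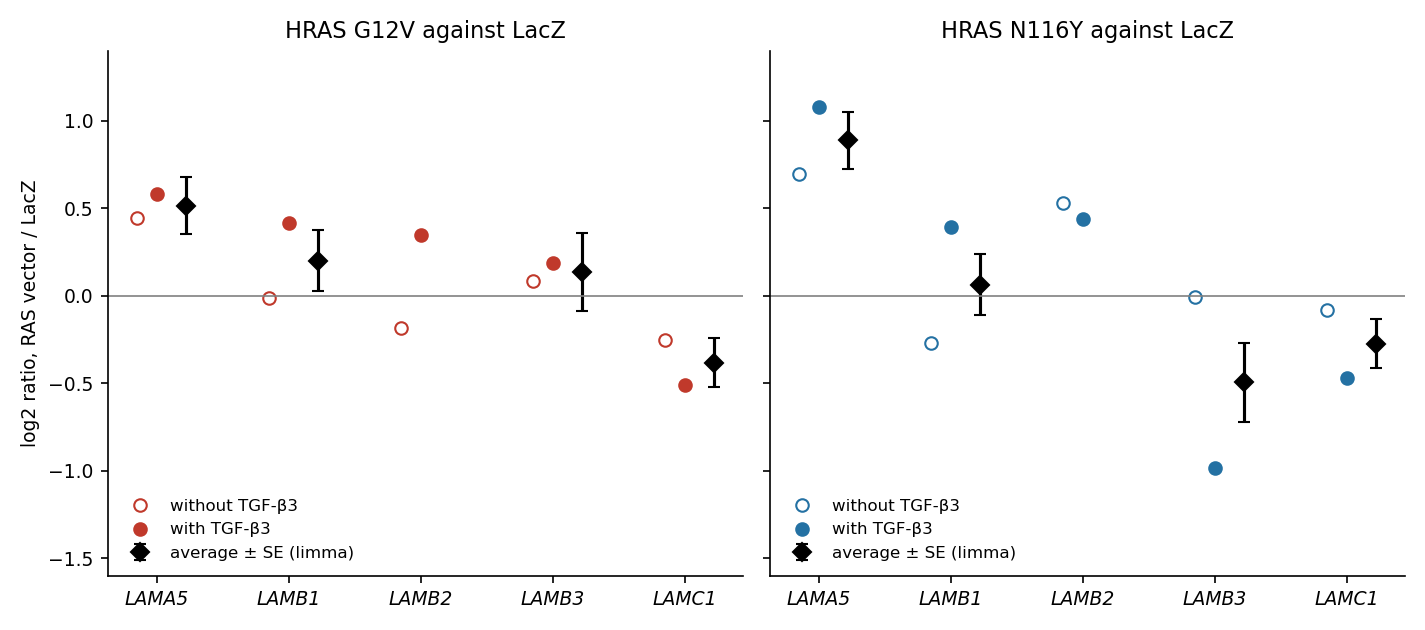
Log2 ratio of each RAS vector to LacZ for the measured laminin genes, without (open) and with (filled) TGF-beta3, 1 array over 1 array; black diamonds are limma's average with its SE. LAMA5 lies above 0 with both vectors, and LAMB3 is at -0.00 and -0.99 with HRAS N116Y.

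The p53 siRNA was compared with the control siRNA on 1 array each, with no test. LAMB1 had a signal of 524 with control siRNA and 303 with p53 siRNA, a log2 ratio of -0.79, and its other probe set had 249 and 185, a ratio of -0.43. LAMB2 had 69.6 and 38.0, a ratio of -0.87 that was -0.67 under quantile normalization. LAMA5 had 378 and 327 (-0.21), LAMB3 1290.1 and 1441 (0.16) and LAMC1 742 and 849 (0.19), while the other probe set of LAMC1 had 414 and 638 (0.63). LAMB1, with both probe sets, and LAMB2 were thus lower with p53 siRNA, while LAMC1 was higher by an amount that depended on the probe set. None of the 5 was 2-fold apart, against 2.35% of all genes higher and 6.16% lower by that much. The 3' actin probe set was 3.68 and 4.01 times as bright as the 5' one on these 2 arrays, against 1.16 to 1.39 times on the adenovirus arrays, and no siRNA array was set against an adenovirus array. Its part in these ratios was not tested.

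Genes around the laminins were taken as lists, which were also chosen with earlier results of these data known. Of 13 tested genes of the basement membrane, 7 rose with TGF-beta3 and 0 fell by limma, against 16.3% and 17.4% of all genes. An unadjusted p under 0.05 was found for 10 of them, against 44.8% of all genes, and the median log2 change was 0.61 against -0.01 for all genes. The largest rises were COL7A1, the anchoring fibril collagen that binds the LAMB3-containing laminin, by 1.31 ± 0.14 (SE; limma's adjusted p = 6.67e-05), and the type IV collagen chains COL4A1 (1.18), COL4A6 (1.03) and COL4A2 (0.93), which form the network beside that of laminin. COL4A6 did not pass with the mean of all probe sets (limma's adjusted p = 0.0617). COL18A1 rose by 0.85, a call that was lost without either LacZ array (0.64, with limma's adjusted p = 0.0865 without the untreated and 0.0999 without the treated one). NID1, the nidogen that links the gamma chain of LAMC1 to type IV collagen, rose by 0.75. That call was lost with a floor of 50 (limma's adjusted p = 0.0616) and with no vector term (0.27). Without the HRAS G12V arrays the NID1 change was 0.72, and the call lay at the threshold. Without either HRAS N116Y array 1 gene of the list fell. Without the vector in the model 4 of these genes rose.

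Of 10 tested laminin receptors and hemidesmosome genes, 6 rose with TGF-beta3 and 0 fell by limma, against 16.3% and 17.4% of all genes. An unadjusted p under 0.05 was found for 7 of them (44.8% of all genes), and the median was 0.48. ITGA2 rose by 1.01, the tetraspanin CD151, a partner of laminin-binding integrins, by 0.98, ITGB4, also one of the keratinocyte markers, by 0.83, ITGB1 by 0.64 and DST, a hemidesmosomal plaque protein, by 0.56. ITGA6, the partner of ITGB4, rose by 0.40 ± 0.11 (SE; limma's adjusted p = 0.0174). Its call was lost without 1 or both LacZ arrays (0.40) and without 1 or both HRAS G12V arrays (0.32). It was also lost with an untrended prior (limma's adjusted p = 0.0514) and with no vector term (0.534).

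Of 7 tested proteases that can cut laminin or its processing enzymes, 4 rose and 2 fell by limma, against 16.3% and 17.4% of all genes. The gelatinase MMP9 rose by 4.87, MMP2 by 1.62 and MMP14, the membrane-bound activator of MMP2, by 1.57. Of the plasminogen activators, PLAU rose by 1.88 (3.68-fold) and PLAT fell by 1.09, and the lysosomal protease CTSS, cathepsin S, fell by 0.89. With a floor of 50 neither fall passed, nor did that of CTSS when probe sets were averaged. Neither passed with no vector term (limma's adjusted p = 0.186 for PLAT and 0.383 for CTSS). Without both HRAS N116Y arrays the 2 genes were too dim to be tested. In the other 8 fits with arrays left out PLAT changed by -1.16 to -1.05 and CTSS by -1.09 to -0.78. Those without 1 HRAS N116Y array also took the change from the other vectors alone. BMP1, which trims laminin chains, had a log2 change of 0.42 (limma's adjusted p = 0.178).

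**Figure D5:**
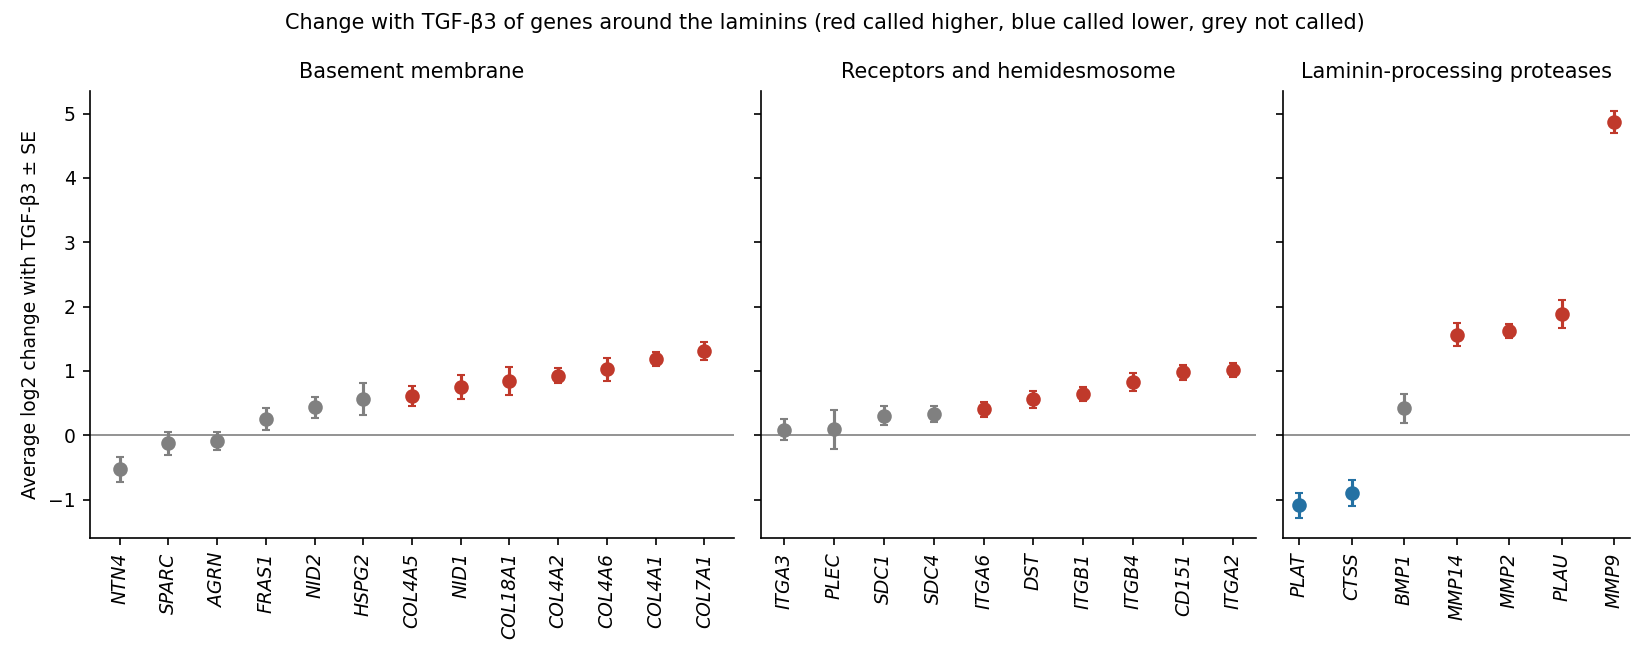
Average log2 change with TGF-beta3 with its SE (limma, 6 arrays) of the tested genes of the basement membrane, the laminin receptors and hemidesmosome, and the laminin-processing proteases. Red points were called higher, blue lower and grey neither; COL7A1 (1.31), ITGA2 (1.01) and PLAT (-1.09) mark the range outside the MMPs and PLAU.

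The same lists were read against the vectors. With HRAS G12V against LacZ 0 genes of the 3 lists passed limma's test, where 0% of all genes were called higher and 0.0445% lower. An unadjusted p under 0.05 was found for 0 of 13 basement membrane genes, 0 of 10 receptor and hemidesmosome genes and 3 of 7 proteases. The share over all genes was 6.39%. With HRAS N116Y against LacZ, where 1.58% of all genes were called higher and 0.846% lower, ITGA6 fell by 1.17 ± 0.14 (SE; limma's adjusted p = 0.00161). Its signals were 2183 and 2898 on the LacZ arrays, 2413 and 3552 on the HRAS G12V arrays and 1032 and 1219 on the HRAS N116Y arrays, so that the HRAS N116Y arrays lay below all others. NID1 fell by 1.31 ± 0.23 (SE; limma's adjusted p = 0.0158). CTSS rose by 1.70, PLAT rose by 1.15 and MMP9 fell by 1.31. With no filter on dim genes these 5 calls were lost, as were those of MMP9, NID1 and PLAT with a floor of 50, those of CTSS, ITGA6 and MMP9 when probe sets were averaged, and the PLAT call under quantile normalization. The NID1 call was also lost without the untreated LacZ array (limma's adjusted p = 0.0678), and the PLAT call without either LacZ array (0.0911 and 0.148). Between the RAS vectors, 2.58% of all genes were called higher and 3.8% lower with HRAS G12V. ITGA6 was higher with HRAS G12V by 1.38 (limma's adjusted p = 0.00032) and NID1 by 1.31. FRAS1 was lower by a log2 change of -1.14, COL4A6 by -1.12 and COL4A5 by -0.84. Of the proteases, MMP9 was higher with HRAS G12V by 1.83 (limma's adjusted p = 0.00071). PLAT and CTSS were lower, with log2 changes of -1.83 and -2.28 (limma's adjusted p = 0.0013 and 0.00049). Without the treated HRAS G12V array the calls of COL4A6 and COL4A5 were lost (limma's adjusted p = 0.0725 and 0.173), and with arrays left out their changes ran from -1.52 to -0.72 and from -1.18 to -0.49. Both were also lost with the mean of all probe sets, these 2 and FRAS1 with no filter, and COL4A5 with an untrended prior. The calls of NID1 and MMP9 were lost with a floor of 50.

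Among genes with a log2 span of at least 1 on the adenovirus arrays, LAMB3 was most like BLACAT1 (r = 0.997), WDR54 (0.996), SPHK1 (0.995) and FERMT1 (0.995) over the 6 arrays. FERMT1, the integrin activator kindlin of keratinocytes, had signals of 1461, 1433 and 1161 untreated and of 6195, 7178 and 3326 with TGF-beta3, in the order LacZ, HRAS G12V, HRAS N116Y. Of the 2167 genes compared, 112 had r above 0.95, and the 6 points share the TGF-beta design. LAMA5 was most like CITED2 (0.994), NR2F1 (0.966), SASH1 (0.963) and SLC25A28 (0.961), and 7 genes had r above 0.95 with it. CITED2, a transcriptional coregulator, had signals of 95.4, 117 and 134 untreated and of 53.6, 74.9 and 94.6 with TGF-beta3 in that order. With LAMB3, r was 0.78 for LAMC1, 0.36 for LAMB1 and -0.81 for LAMA5 over the same arrays.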

How the data were processed

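The members and gene lists were chosen with earlier results of these data known. The deposited table holds, for each array and probe set, a linear intensity that the authors computed with MAS5 5.0, per the submitters' processing notes; its values show a trimmed mean near 100 on each array. Genome build and detection calls are not given in the sources used here. Signals were rescaled to a 2% trimmed mean of 100, raised to a floor of 20 and put on the log2 scale, so changes of dim genes are understated.

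Of 54675 probe sets, 41097 had 1 gene symbol, 1801 named more than 1 gene and 11777 named none here. Those with 1 symbol were used, with symbols updated through gene identifiers (41043 matched in RefSeq's table), never through synonyms, since older names of some laminin genes are current names of others. Each gene took the probe set with the highest mean over the 8 arrays.

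limma 3.58.1 in R 4.3.3 fitted vector plus TGF-beta on the 6 adenovirus arrays, with a trended prior (8.74 degrees of freedom) and Benjamini-Hochberg adjustment. The 2 residual degrees of freedom hold the interaction as well as noise, so p-values rest on array-to-array spread that may be technical. The number of arrays limits the precision. Single pairs of arrays are log2 ratios with no test. Groups come from the sample titles. The rule for named genes took the laminin chains, HRAS, up to 5 genes per list with the largest change among those called, and the 4 genes most like a laminin gene with a log2 span of at least 1; MMP9, BMP1 and further list members were named after their values were seen. The fit was run on simulated data with additive shifts and independent noise. That simulation held no interaction of vector and TGF-beta, so it cannot check the p-values of the real arrays. The level of the siRNA's target is not reported here. Alternatives changed the floor, filter, scaling, probe set choice, prior, block and arrays.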

Additional observations from a re-analysis of the deposited data

Results flagged for a closer look

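Some ratios had opposite signs in groups set side by side; none of these differences was tested. For LAMB1 the log2 ratio of TGF-beta3 to untreated was -0.191 with LacZ and 0.236 with HRAS G12V, a difference of -0.427, and 0.473 with HRAS N116Y, a difference of -0.664. The same numbers, -0.427 and -0.664, separate the ratios of HRAS G12V and of HRAS N116Y to LacZ without TGF-beta3 (-0.013 and -0.269) from those with it (0.414 and 0.395). The other probe set of LAMB1 had TGF-beta3 ratios of the opposite sign in each vector (0.08, -0.09 and -0.13). Its ratios to LacZ did not change sign: 0.19 without and 0.03 with TGF-beta3 for HRAS G12V, and 0.22 and 0.01 for HRAS N116Y. For LAMB2, dim on all adenovirus arrays, the TGF-beta3 ratio was 0.004 with LacZ and 0.54 with HRAS G12V against -0.09 with HRAS N116Y, differences of 0.0943 and 0.63. Its ratio of HRAS G12V to LacZ was -0.187 without and 0.349 with TGF-beta3, a difference of -0.535. As single arrays form each group, no group was large enough for a test of stray samples.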

How the results depend on the processing

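With all arrays kept, LAMB3 rose with TGF-beta3 in all 8 alternatives of processing and model, LAMA5 fell in 7 of 8 and LAMC1 rose in 8 of 9; LAMA5 and LAMC1 lost the call with no vector term (adjusted p = 0.0956 and 0.0667 by limma). With arrays left out, the change ran from 1.72 to 2.26 for LAMB3 and from -0.83 to -0.64 for LAMA5. That of LAMC1 ran from 0.35 to 0.54, and its call was lost without the LacZ arrays. Leaving out 1 array of a vector or both gave the same change with TGF-beta3, because an array left without its partner is absorbed by its own vector term. The vector term pairs the treated with the untreated array of each vector, and the fit with no vector term is the unpaired one. No paired analysis was possible by replicate number because each group held 1 array.

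The genes called higher with TGF-beta3 were 1466, and 953 with no vector term, which left 1 laminin gene higher and 0 lower. For HRAS G12V against LacZ the 4 genes called lower became 1 with a floor of 50, 2 each with quantile normalization, the mean of all probe sets, a filter of 100 or an untrended prior, and 0 with no filter. For HRAS N116Y against LacZ the 142 higher genes became 23 with the mean of all probe sets, 9 with no filter and 75 with an untrended prior, each of which left 0 laminin genes higher. The 76 lower genes became 14, 3 and 32 in the same settings and 50 with a floor of 50. For HRAS G12V against HRAS N116Y the 232 higher genes became 58, 40 and 109 in the same 3 settings, and the 341 lower ones 148 with the mean of probe sets and 95 with no filter. With TGF-beta3, 0 laminin genes were 2-fold higher in that comparison under quantile normalization. With no filter, genes at the floor on all arrays stayed out.

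With arrays left out, 961 to 1899 genes were higher and 1025 to 2161 lower with TGF-beta3, with 1 to 2 laminin genes higher and 1 lower. The ranges were 1 to 132 higher and 5 to 135 lower for HRAS G12V against LacZ, 88 to 753 and 68 to 710 for HRAS N116Y against LacZ, and 92 to 816 and 225 to 856 for HRAS G12V against HRAS N116Y, each with 0 to 1 laminin genes higher and 0 to 1 lower.

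Some signs turned. The other probe set gave -0.048 for LAMB1 with TGF-beta3 and 0.065 for LAMC1 between the RAS vectors. With arrays left out, LAMB1 ranged from -0.072 to 0.47 for HRAS G12V against LacZ, -0.21 to 0.34 for HRAS N116Y against LacZ and -0.088 to 0.36 between the RAS vectors, LAMB3 from -0.16 to 0.43 and -1.01 to 0.022 in the first and second of these, and LAMC1 from -0.24 to 0.022 in the third. The cause of these shifts was not tested. With 1 array a group and signals near background for LAMB2, small changes could not be resolved.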
